A study of Mus musculus with 2 samples.

Results

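The olfactory receptor gene arrays examined here are a stretch of mouse chromosome 2 from 86000001 to 89800000 and a stretch of chromosome 9 from 38000001 to 39800000 (build mm9, 1-based). They are set by position alone and comprised 1120 bins of 5 kb, 760 on chromosome 2 and 360 on chromosome 9, of 528329 bins kept on 21 nuclear chromosomes. The other 60032 kept bins of chromosomes 2 and 9 served for comparison. A further 14 bins of these chromosomes, none in an array, lay in 10 kb bins with 4200 or more deposited input reads and were left out.

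The reads came from MIN6 cells, a mouse insulinoma line with features of pancreatic beta cells, grown under regular culture conditions. The libraries were 1 chromatin immunoprecipitation (ChIP) with an antibody against the corepressor CtBP2 and 1 input, chromatin of the same line sequenced without immunoprecipitation. They held 8474671 and 12471942 distinct nuclear reads, counting 1 read per chromosome, 5 prime end and strand, from 34888175 and 20834562 deposited nuclear reads. Since each group was a single library, no value could be checked against a replicate, and the tests apply to these libraries rather than to conditions. Intervals are 95% intervals and cover counting error only. No IgG library was analysed here.

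Olfactory receptors are G protein-coupled receptors of olfactory sensory neurons, and their genes form the largest gene family of the mouse genome. They lie side by side in large clusters, and each mature neuron expresses a single receptor allele. In other cell types the genes are generally silent and the clusters are packed in repressive, late-replicating chromatin. The clusters are poor in G and C bases and rich in copies of the LINE-1 retrotransposon. CtBP2 does not recognise DNA by itself but is brought to it by partner proteins that bind DNA, and it recruits enzymes that modify histones. Expression was not measured in these libraries, so the silence of the receptor genes in MIN6 cells was not checked.

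By gene order in RefSeq (GRCm38.p6), the largest receptor cluster of chromosome 2 held 222 protein-coding receptor genes and 71 receptor pseudogenes, from Olfr987 to Olfr1274. Only 3 other protein-coding genes, Fads2b, Pramel7 and Pramel6, interrupted it, and Lrrc55 and Ptprj flanked it. The largest cluster of chromosome 9 held 95 protein-coding receptor genes and 31 pseudogenes from Olfr160 to Olfr986, interrupted by Vwa5a, AW551984 and Tmem225 and flanked by Panx3 and Zfp202. No coordinates were converted between builds, so single genes were not placed on the reads, and which of these genes lie inside the mm9 limits was not determined. In all, chromosomes 2 and 9 held 287 and 130 protein-coding receptor genes, in 3 and 2 clusters. The comparison bins were not screened for receptor genes and may include some of them.

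The sequences upstream of the receptor genes were poor in CpG dinucleotides. Of 317 protein-coding genes in these clusters, 265 had an entry in the RefSeq promoter set, with 267 start sites. The median GC content of the 250 bases before the gene start was 32% (quartiles 28% and 34.8%), against 52.8% (45.6% and 61.4%) over 31903 promoters of genes that are not olfactory receptors. No CpG was present in 45.3% of the receptor promoters and 6.79% of the others. At least 10 CpGs were present in 0 of 267 receptor promoters and in 38.9% of the others. The letters CACCTG, read on both strands, which the CtBP partners ZEB1 and ZEB2 recognise, were found in 5.62% of the receptor promoters and 17.4% of the others. These shares were not matched for GC content, which differed between the sets. A match is a description of letters and not a binding site. The 3 promoters printed here give the base composition in view, with CpGs in capitals. They are the first with an entry in each cluster and the one with the most CpGs, which had 7. Each is 250 bases long, from GRCm38.p6 and in the direction of the gene, Olfr988 and Olfr160 on the minus strand and Olfr1212 on the plus strand.
Olfr988: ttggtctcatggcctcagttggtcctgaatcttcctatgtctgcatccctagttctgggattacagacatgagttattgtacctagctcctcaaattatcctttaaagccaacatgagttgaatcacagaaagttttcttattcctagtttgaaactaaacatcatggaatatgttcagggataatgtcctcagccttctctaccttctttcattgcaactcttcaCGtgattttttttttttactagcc
Olfr160: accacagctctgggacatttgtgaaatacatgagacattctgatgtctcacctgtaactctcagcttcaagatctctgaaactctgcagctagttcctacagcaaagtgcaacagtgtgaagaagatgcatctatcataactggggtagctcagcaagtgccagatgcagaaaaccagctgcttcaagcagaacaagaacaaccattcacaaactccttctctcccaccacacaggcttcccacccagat
Olfr1212: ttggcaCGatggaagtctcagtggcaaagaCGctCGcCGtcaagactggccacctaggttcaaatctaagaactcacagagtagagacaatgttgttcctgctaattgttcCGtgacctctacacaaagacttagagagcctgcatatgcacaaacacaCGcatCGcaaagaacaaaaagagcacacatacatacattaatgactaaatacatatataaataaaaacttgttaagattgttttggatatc

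CtBP2 ChIP reads were sparse in the arrays, yet the typical array bin held as many as the typical bin elsewhere. The 1120 array bins held 7461 ChIP and 28228 input reads, a ratio of 0.264 ChIP reads per input read (interval 0.258 to 0.271). The other bins of chromosomes 2 and 9 held 1027441 and 1393653 reads, a ratio of 0.737 (0.735 to 0.739). The array ratio was therefore 0.359 times that of the other bins (0.349 to 0.368). Input density was 5.04 reads per kb in the arrays and 4.64 elsewhere, whereas ChIP density was 1.33 and 3.42 reads per kb. The medians told a different story from the sums. The median bin held 5 ChIP reads (quartiles 3 and 8) in the arrays and again 5 (3 and 8) elsewhere, and 19 input reads (13 and 31) in the arrays against 17 (12 and 26).

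The difference lay in the bins with many ChIP reads. More than 20 ChIP reads were found in 20 array bins (1.79%) and in 3491 other bins (5.82%), and 50 or more in 13 (1.16%) and 2316 (3.86%). The fullest array bin held 134 ChIP reads and the fullest bin elsewhere 2046. The 5% of bins with most ChIP reads held 25.8% of the ChIP reads of the arrays and 69.3% of those of the other bins. The variance of ChIP counts over bins was 16 times their mean in the arrays and 327 times elsewhere, where independent reads at even density would give 1. Input counts varied 13.6 and 20.7 times their mean. Bins without a ChIP read made up 4.2% of array bins, 5.61% of the others and 3.49% of the others that held any read. No array bin lacked input reads, while 1328 of the other bins did.

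**Figure D1:**
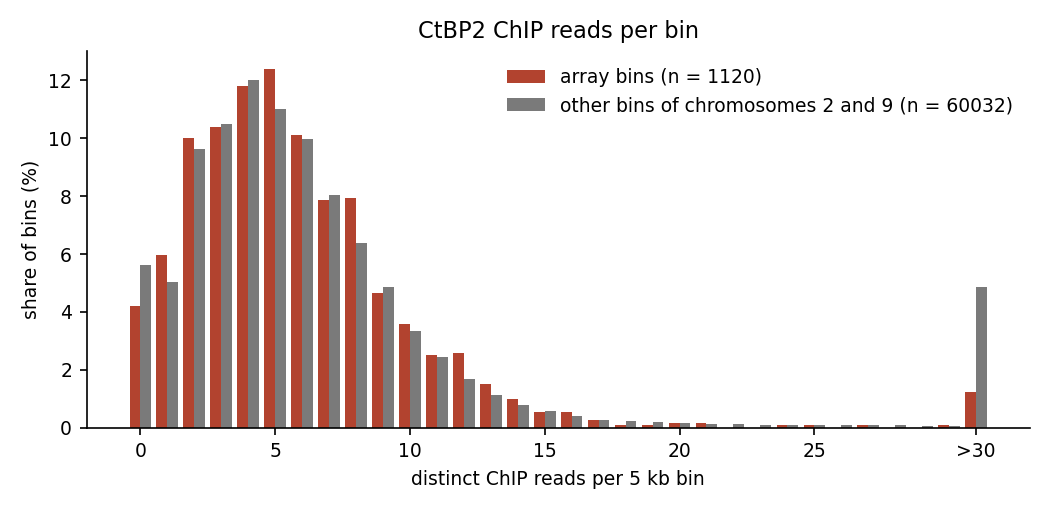
Share of 5 kb bins (y axis, percent) with each number of distinct ChIP reads (x axis), for the 1120 array bins and the 60032 other bins of chromosomes 2 and 9. The distributions overlie each other around the shared median of 5 reads and part at the right end, where bins with more than 30 reads are gathered in the last bar.

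Apart from CtBP2 regions, ChIP density in the arrays was close to that of the rest of both chromosomes. CtBP2 regions are joined 200 bp windows with a ChIP count at least 3 times that expected and an adjusted p of at most 0.01. The p came from a Poisson test per window, with Benjamini-Hochberg correction over all windows of the genome that held a read. In bins that overlapped no such region, ChIP density was 1.11 reads per kb in the arrays (interval 1.08 to 1.14) and 1.11 (1.10 to 1.11) in other bins that held reads. Input density in the same bins was 4.90 reads per kb (4.84 to 4.96) and 4.12 (4.11 to 4.13). The ChIP to input ratio without region bins was thus 0.227 in the arrays and 0.269 elsewhere, or 0.843 times (0.820 to 0.867). The lower ratio of the arrays in these bins went with higher input at equal ChIP density. The arrays of chromosomes 2 and 9 had ratios of 0.225 and 0.230 in such bins, a quotient of 1.02 with an interval (0.964 to 1.09) that includes 1. When bins overlapping a raised-input block of 5 to 9 kb, described further on, were dropped too, the ratios were 0.252 and 0.285. ChIP density was then slightly lower in the arrays, 1.01 (0.985 to 1.04) against 1.06 (1.06 to 1.07) reads per kb.

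The call on whole 5 kb bins found almost no array bin. With input scaled by library totals, 2 of 1120 array bins (0.179%) were at least 3 times the expected count at an adjusted p of at most 0.01 (Poisson test, Benjamini-Hochberg over 528329 bins). The background was 2.4% of the other bins of chromosomes 2 and 9 and 2.06% of all kept bins. The called bins were 38045001 to 38050000 of chromosome 9, with 128 ChIP and 45 input reads, and 88510001 to 88515000 of chromosome 2, with 77 and 35. The ratio of totals over kept bins, 0.677, was above the 0.264 of the arrays, and a bin at the array ratio is then far below its expected count. When input was scaled by that array ratio, 11 array bins (0.982%) were called, against 3.75% of the other bins and 3.34% of all bins, so the arrays stayed below the background under either scale.

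Bins rich in ChIP were also rich in input. The 3 fullest bins by ChIP in the chromosome 9 array held 134 ChIP and 85 input reads (38645001 to 38650000), 128 and 45 (38045001 to 38050000) and 108 and 82 (38770001 to 38775000). In the chromosome 2 array they held 106 and 57 (87365001 to 87370000), 105 and 104 (89735001 to 89740000) and 95 and 95 (87745001 to 87750000). Each of these bins lay well above the array median of 19 input reads. Bins rich in input were not all rich in ChIP. The bin with most input reads in either array, at 89610001 to 89615000 of chromosome 2, held 109 input (interval 89.5 to 131) and 9 ChIP reads (4.12 to 17.1). The next on chromosome 2, at 87725001 to 87730000, held 106 and 14. On chromosome 9 the bin richest in input, at 38355001 to 38360000, held 105 and 56, that at 38310001 to 38315000 held 89 and 91, and that at 38845001 to 38850000 held 86 and 11.

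By class of input depth, array bins held fewer ChIP reads on average than other bins from 10 input reads up. Under 10 input reads the median ChIP count was 4 in the arrays and 3 elsewhere, with means of 4.16 and 3.57. That class includes the 1328 other bins without an input read, while no array bin lacked input, so these counts are not matched. The ChIP to input ratio of the class was 0.566 in the arrays and 0.587 elsewhere. Among bins with at least 10 and under 20 input reads the median ChIP count was 4 in both sets, with means of 4.6 and 4.93. From 20 to under 30 input reads the medians were 5 and 6 and the means 5.39 and 6.52. From 40 to under 60 the medians were 8 and 9, but the means were 11.3 and 22.5. From 80 to under 300 the median was 15 reads in 22 array bins and 216 in 1858 other bins, with means of 38.5 and 292. In that class 31.8% of array bins overlapped a CtBP2 region, against 71.5% of other bins. In this class a CtBP2 region was thus present in most bins outside the arrays and in a minority inside them. Input was not matched within the class, since no array bin held more than 109 input reads and some other bins did. Over all bins, Spearman's rho between ChIP and input counts was 0.391 across array bins and 0.469 across the others, given as a description since bins share the libraries and are not replicates.

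**Figure D2:**
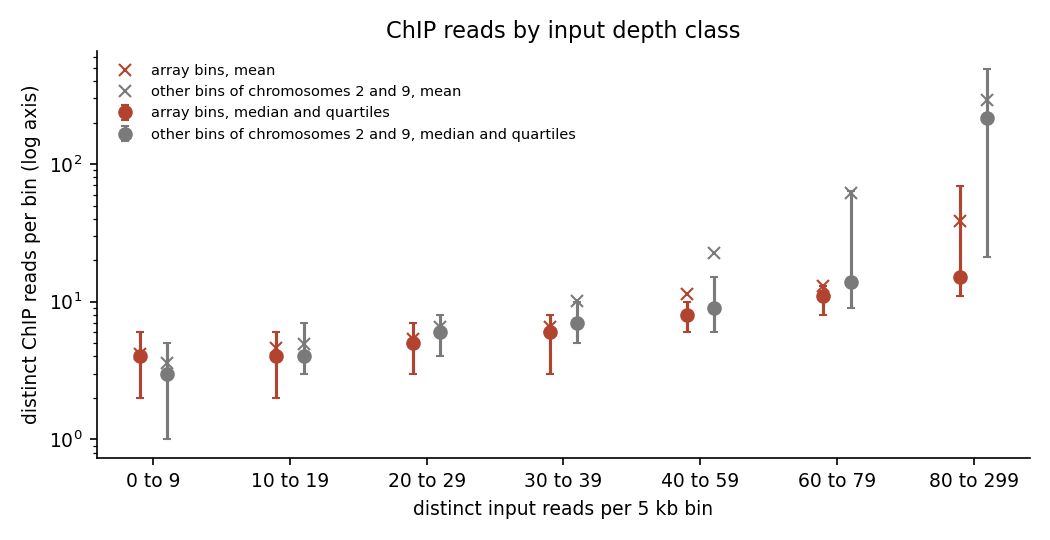
Distinct ChIP reads per 5 kb bin (y axis, log scale) by class of input depth (x axis, distinct input reads per bin), with medians and quartiles as points and bars and means as crosses, for array bins and other bins of chromosomes 2 and 9. The medians of the sets differ by 1 read at most below 60 input reads and are 15 and 216 in the highest class.

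The arrays held few CtBP2 regions, and none as high as the highest elsewhere. When windows of at least 10 times the mean input were dropped, 18 regions remained in the arrays, 9 in each, or 3.21 per Mb against 8.28 per Mb in the other bins that held reads. Without that exclusion there were 19, 9 on chromosome 2 and 10 on chromosome 9, or 3.39 per Mb (Poisson interval 2.04 to 5.3) against 12.2 (11.8 to 12.7) from 3595 regions. In bins, 19 array bins (1.7%) overlapped one of the 19 regions, against 6.18% of the other bins and 5.69% of all kept bins. The corresponding shares with the exclusion were 1.52%, 3.91% and 3.73%. The 19 regions are described from here on. Their median width was 600 bp (250 to 1150), against 500 bp (200 to 3750) for regions elsewhere. Their median fold over the expected count was 8.18 (5.13 to 16.3), against 10.3 (3.02 to 60.4). The median region held 98.6 ChIP reads per kb in the arrays and 106 elsewhere, with maxima of 168 and 1910. A fold of 10 or more was reached by 4 of the 19 (21.1%) and by 51% of regions elsewhere. Region bins held 18.1% of the ChIP reads of the arrays, against 70.4% of those of the other bins.

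The highest fold in the arrays was at 87366001 to 87366600 of chromosome 2. Its 200 bp summit window held 71 ChIP reads (interval 55.5 to 89.6) and 20 input reads, a fold of 16.3 (12.8 to 20.6) at an adjusted p of 1.1e-56 (Poisson test). That window held more than the 9.74 input reads at which windows were dropped, so in the set with the exclusion only the right part of the region was called. The other folds of 10 or more were at 38048201 to 38049350 of chromosome 9 (13.1, interval 9.41 to 17.8), at 89570401 to 89570800 on the other array (12.5, interval 7.62 to 19.3) and at 39693751 to 39694300 on chromosome 9 again (11.8, interval 7.54 to 17.5). The intervals of all 4 overlapped. The widest regions were on chromosome 9, at 38048201 with 126 ChIP and 31 input reads over 1150 bp and at 38647301 to 38648350 with 122 and 40 over 1050 bp. Then came 38772051 to 38772950 of chromosome 9 with 99 and 39 reads and 89739101 to 89739950 of chromosome 2 with 94 and 32. On chromosome 2, regions at 88081301 to 88081950, 87746451 to 87747100, 88551101 to 88551850 and 88510201 to 88510900 held 76, 74, 72 and 69 ChIP reads over 28, 36, 28 and 22 input reads. On chromosome 9, regions at 38313301 to 38313950 and 39250751 to 39251350 held 75 and 65 over 25 and 21. These 10 regions had 96 to 117 ChIP reads per kb, against 31.4 to 168 over all 19.

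The remaining regions were small. At 38359001 to 38359400 of chromosome 9 there were 24 ChIP and 19 input reads, at 89570401 of chromosome 2 there were 23 and 6, and at 89360001 to 89360350 of chromosome 2 there were 19 and 10. The region at 39693751 of chromosome 9 held 41 and 12. Those at 38850051 to 38850350 and 39727801 to 39728050 of chromosome 9 held 14 ChIP reads each, that at 87008801 to 87009150 of chromosome 2 held 11, and that at 39705201 to 39705450 of chromosome 9 held 9. The last had as many input as ChIP reads between its limits. The regions at 38359001 and 39727801 of chromosome 9 were not found in the set with windows of high input left out. The summit window at 39727801 held 5 input reads, below the 9.74 at which windows were dropped. Its adjusted p in the larger set was 0.0059 (Poisson test), close to the limit of 0.01. In the set with the exclusion, the region at 38772051 of chromosome 9 was called as 2 regions, which gives the total of 18.

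Most of the regions sat near the end of long blocks of raised input. Such blocks are stretches where 1 kb windows held 10 or more input reads, joined within 1 kb. This definition was chosen after the profiles of the fullest bins were seen, so the counts that follow are a description without a test. All 19 array regions overlapped a block of some length, as did 93.4% of the 3595 regions elsewhere. For 16 of the 19 (84.2%, Wilson interval 62.4% to 94.5%) the block was 5 to 9 kb long, against 23.8% (22.4% to 25.2%) of those elsewhere. In those 16 the summit lay 0.4 to 1.55 kb from the nearer end of the block and 5.35 to 6.9 kb from the farther end. The same holds for 15.7% of regions elsewhere, with the nearer end within 1.6 kb. The site lay at the right end of the block in 10 of the 16 and at the left end in 6. At 88081301 of chromosome 2 the block ran from 88080601 to 88088400, the summit lay 1.15 kb from its left end, and outside the region the block held 12.9 input and 2.38 ChIP reads per kb. At 38647301 of chromosome 9 the block ran from 38641801 to 38649000, the summit lay 1.35 kb from its right end, and the rest of the block held 16.1 input and 3.09 ChIP reads per kb. Input was itself raised at the sites, which helps to set the near end of a block.

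**Figure D3:**
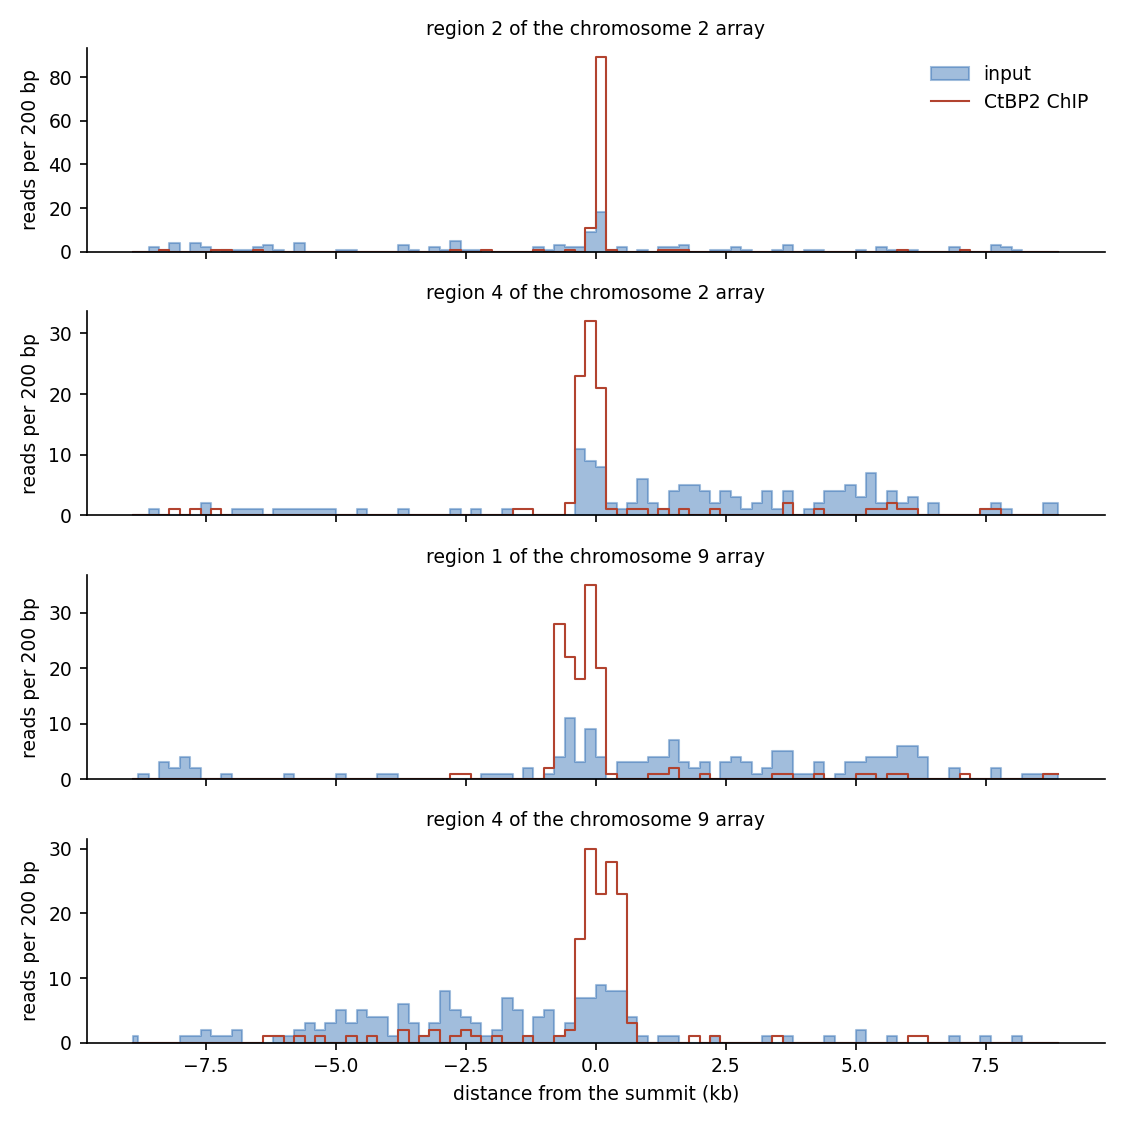
Distinct reads per 200 bp (y axis) by distance from the summit in kb (x axis) at 4 array regions, for the CtBP2 ChIP (line) and the input (filled). Region 2 of the chromosome 2 array, at 87366001, is a single narrow peak, while the other 3, at 88081301, 38048201 and 38647301, are wider and have raised input for several kb on 1 side of the summit only.

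Long input blocks were more frequent in the arrays, and most carried no CtBP2 region. There were 85 blocks of 5 to 9 kb in the arrays, 15.2 per Mb, against 7.63 per Mb elsewhere on both chromosomes, and their median length was 6.6 kb in both sets. They covered 10.3% of the arrays and 5.05% of the other sequence. A CtBP2 region overlapped 16 of the 85 (18.8%, Wilson interval 11.9% to 28.4%) and 31.4% (29.5% to 33.4%) of the 2241 blocks elsewhere. The 69 array blocks without a region held 13.5 input and 1.97 ChIP reads per kb, a ratio of 0.146 (0.136 to 0.157), and such blocks elsewhere held 13.3 and 2.08, a ratio of 0.156 (0.154 to 0.158). Choosing stretches by high input lowers their ratio. Averaged over both ends of all 85 array blocks, the 16 with a region included, ChIP density was 8.64 reads per kb from 1 to 1.5 kb inside the end and 1.99 from 2 to 2.5 kb inside, while input was 16 and 14.4. From 0.5 to 1 kb outside the blocks, ChIP was 0.953 and input 3.08 reads per kb. The 16 blocks with a region weigh on these averages, since the region lay near an end in each. The averages were not computed for the 69 blocks without a region.

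Array regions also differed from most regions elsewhere in how often the same read position recurred. The number of deposited ChIP reads per distinct position was 1.07 in the median array region (quartiles 1.06 and 1.23) and 2.0 (1.56 and 2.49) in the median region elsewhere. Because this number rose with read density, regions with 60 to 150 ChIP reads per kb were compared. In that range 9 of 12 array regions (75%) had fewer than 1.2 reads per position, against 279 of 1175 (23.7%) elsewhere. All 9 lay near the end of a block of 5 to 9 kb, as did 2 of the 3 array regions with 1.2 or more. Elsewhere, 52.7% of the 279 regions with few repeat reads lay near the end of such a block, against 14.7% of the 896 regions with 1.2 or more reads per position. The region at 87366001 of chromosome 2 stood apart, with 2.36 reads per position, 168 ChIP reads per kb and a block of 4.2 kb whose remainder held 6.39 input reads per kb. Over all bins the number was 1.5 in the arrays and 2.28 elsewhere, and in bins without a region it was 1.56 and 1.60. The placement of reads with several matches in the genome was not given in the sources used here, and its part in these values was not tested.

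**Figure D4:**
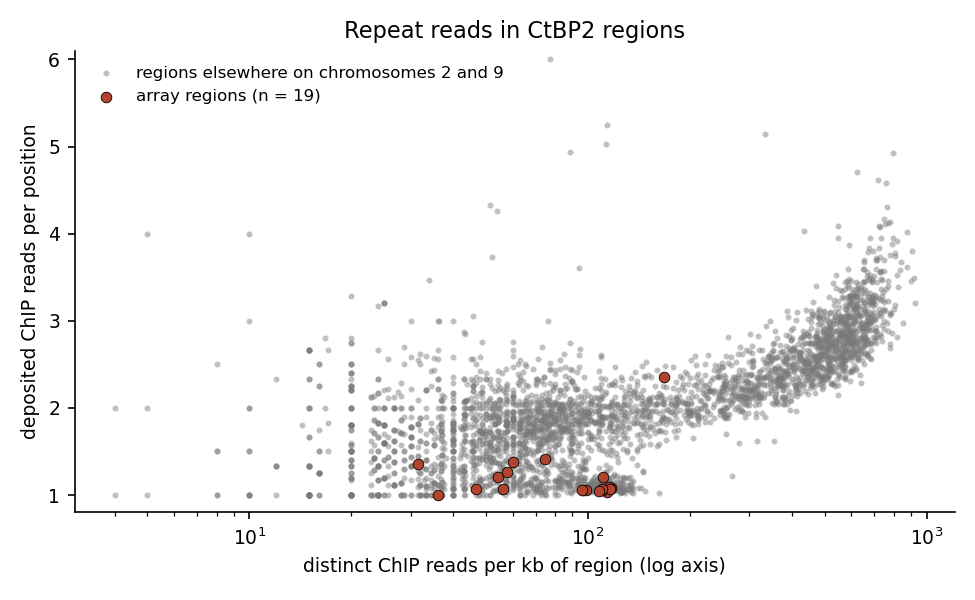
Deposited ChIP reads per distinct position (y axis) against distinct ChIP reads per kb of region (x axis, log scale) for the 19 array regions and regions elsewhere on chromosomes 2 and 9. Regions elsewhere form an upper and a lower band near 100 reads per kb, and most array regions lie in the lower band, while the array region with 168 reads per kb lies in the upper band at 2.36. Elsewhere, 19 regions with more than 6 reads per position and 2 with no ChIP read between their limits are not drawn.

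Along the arrays the ChIP to input ratio was below the chromosome median in most steps. In 38 steps of 100 kb of the chromosome 2 array it had a median of 0.23 and ran from 0.17 (87.1 to 87.2 Mb) to 0.5 (88.5 to 88.6 Mb, with 2 regions). In 18 steps of the chromosome 9 array the median was 0.266, from 0.207 (39.1 to 39.2 Mb) to 0.458 (38.6 to 38.7 Mb, with 1 region). The medians of the other steps of these chromosomes were 0.359 and 0.378, and 35 of 38 and 15 of 18 array steps lay below them. No region fell in 30 of 38 steps (78.9%) on chromosome 2 and in 10 of 18 (55.6%) on chromosome 9, against 41.1% of other steps on each chromosome. Array steps without a region had median ratios of 0.226 (0.17 to 0.303) and 0.236 (0.207 to 0.346), and other steps without one 0.274 and 0.277. On chromosome 2 the first 1.01 Mb of the array held no region and the longest distance between neighbouring summits was 0.81 Mb, while on chromosome 9 it was 0.44 Mb. The array of chromosome 9 had the higher overall ratio, 0.291 (0.279 to 0.304) against 0.251 (0.244 to 0.260), and the quotient of 1.16 (1.10 to 1.22) shrank to the 1.02 given above without region bins.

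A higher ratio outside than inside was seen at 1 of the 4 array limits. At the start of the chromosome 2 array the ratio was 0.244 (0.209 to 0.284) over the 200 kb outside and 0.288 (0.248 to 0.333) over the 200 kb inside, with no region on either side. At its end it was 0.323 (0.286 to 0.365) inside and 0.319 (0.28 to 0.363) outside. At the start of the chromosome 9 array it was 0.189 (0.16 to 0.223) outside and 0.306 (0.271 to 0.344) inside, where 1 region lay. At the end of that array the ratio was higher outside, 0.376 (0.334 to 0.422) with 2 regions, than inside, 0.243 (0.213 to 0.277) with 3. The 200 kb before both array starts thus had ratios as low as those of the arrays. The limits are set by position, and whether these flanks hold receptor genes of the same clusters was not determined.

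**Figure D5:**
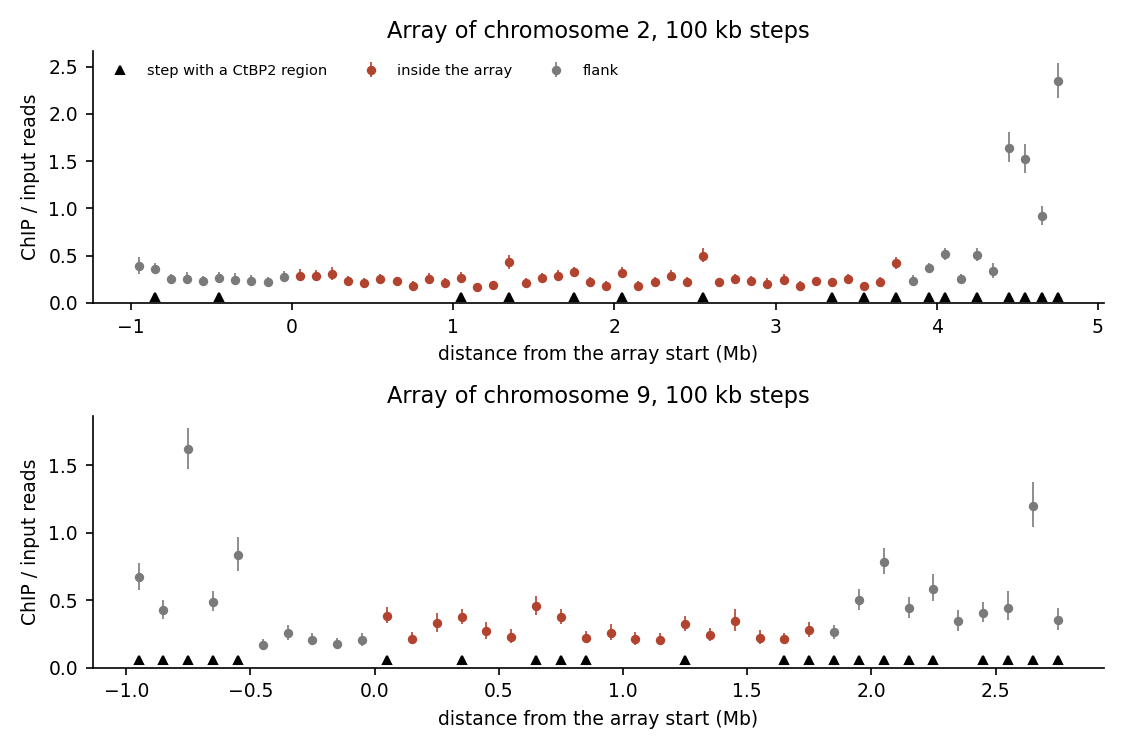
ChIP to input ratio of distinct reads (y axis) in 100 kb steps by distance from the start of each array in Mb (x axis), with 95% intervals, for steps inside the arrays and in 1 Mb on each side. Array steps lie between 0.17 and 0.5, and triangles mark steps that hold a CtBP2 region.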

How the data were processed

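Per the labels' protocols, MIN6 cells were fixed with formaldehyde, chromatin was sonicated and precipitated, and DNA libraries were made with a commercial kit. The deposited files list aligned reads, 1 per line with position and strand, so the number of lines is the raw count of aligned reads. The positions are mm9 coordinates, and the deposited score column is 0 on every line. The submitters' processing notes name BWA, SAMtools 0.1.19, bedtools 2.17.0 and mm9. A filter on mapping quality was not given in the sources used here.

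One read per chromosome, 5 prime end and strand was kept and counted by its 5 prime end in 5 kb bins. For regions, 5 prime ends were moved by 112 bp, from a ChIP fragment length of 225 bp found by strand cross-correlation, and 200 bp windows in steps of 50 bp were tested against whichever was highest of the genome mean and input over 1, 5 and 10 kb, scaled by 0.679. Windows whose input reached 10 times its mean were left out or, in the larger set, kept. Bins were tested against the larger of the mean bin and scaled input. Both calls were run on simulated data with planted enrichment, at a flat ChIP to input ratio for bins and at flat density for regions. Regions at raised-input blocks were not simulated. Ratios have exact conditional binomial intervals, quotients of ratios have log-scale intervals, and counts have exact Poisson intervals. The members and lists were chosen with earlier results of these data known. All regions in the arrays are named if at most 20, with the 3 bins fullest in ChIP and in input per array, the extreme 100 kb steps and the array limits. The rule for shown genes, written for chromosomes 2 and 9, was narrowed to the largest receptor cluster of each, where clusters may hold up to 3 other protein-coding genes in a row. Python 3.11.15, NumPy 2.4.6, SciPy 1.17.1, pandas 2.3.3 and matplotlib 3.10.9 were used.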

Additional observations from a re-analysis of the deposited data

How the results depend on the processing

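No paired analysis was possible because ChIP and input are single libraries. The ChIP to input ratio of the arrays, 0.264, became 0.366 with all deposited reads, 0.251 and 0.291 for the arrays of chromosomes 2 and 9 alone and 0.227 without bins that overlap a region. It stayed within its counting interval in the other alternatives run. The quotient to the other bins, 0.359, stayed below 1 in every alternative run. It was 0.243 with all deposited reads, 0.346 and 0.387 for each chromosome alone, 0.380 against all other autosomal bins, 0.776 as a quotient of medians over bins with at least 10 input reads, and 0.843 without region bins. Most of the difference therefore rests on region bins by construction of that alternative. The count of 2 called bins became 1 with all deposited reads, bins of 10 kb, limits moved 0.2 Mb inward or, added after the values were seen, moved 5 prime ends. Of the other bins, 2.21%, 3.82%, 2.4% and 2.36% were called in these alternatives. The count was 1 in each array alone, against 2.42% of other bins on chromosome 2 and 2.38% on chromosome 9. It became 5 when the fold limit was lowered to 2 and 11 with input scaled by the array ratio. The shares of other bins were then 3.28% and 3.75%. With bins of 1 kb the count was 16, out of smaller and more numerous bins than the 1120, and 0.98% of other bins were called. The count of 18 regions, 3.21 per Mb against 8.28 elsewhere, ranged from 13 to 26 over the alternatives. At an adjusted p of at most 1e-05 (Poisson test) it was 13, or 2.32 per Mb against 6.35 elsewhere. With all deposited reads it was 26, or 4.64 against 11.9. Input scaled by the array ratio gave 23 regions, or 4.11 per Mb against 11.7. The same scale without the exclusion of high-input windows gave 26, or 4.64 against 14.0. Depth limits the bins: at a median of 5 ChIP reads, differences of a few reads between single bins were not detectable.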
